A study of Rattus norvegicus with 30 samples.

Results

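Gene expression was compared between plantaris tendons taken 7 days after tenotomy and repair from rats given GSK2894631A at 2 mg/kg (7D 2 mg/kg) and uninjured control tendons. The members were chosen by their sample labels, as the 7D 2 mg/kg replicates 2 to 5 and the control replicates 2 to 4, so that 7 of the 30 tendons in the series entered the comparison. The rats were male Sprague Dawley rats of 3 months. In the repaired group both plantaris tendons were cut through and sutured at once with a Bunnell stitch, the Achilles tendon was left in place to take load, and GSK2894631A, an inhibitor of hematopoietic prostaglandin D synthase (HPGDS), was given by oral gavage 2 times a day in a cellulose and Tween vehicle. Control rats had no tenotomy and were not given the compound, so surgery, dosing and compound cannot be told apart in this comparison. The group given vehicle alone (7D 0 mg/kg, 5 tendons) and the group given 6 mg/kg (7D 6 mg/kg, 3 tendons) underwent the same repair and are used here only to set the 2 mg/kg values beside theirs.

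After a tendon is cut and sutured, leukocytes enter the gap, fibroblasts from the sheath and the stumps divide, and a provisional matrix rich in type III collagen and fibronectin is laid down before type I collagen fibers are rebuilt. Resting tendon cells are marked by tenomodulin, a membrane protein of mature tenocytes, by the transcription factors scleraxis and mohawk, and by small proteoglycans such as fibromodulin that bind collagen fibrils. HPGDS forms one of the prostaglandins made by mast cells and other leukocytes.

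Counts on the 13124 genes listed summed to 20446525 to 31659102 in control tendons and to 14958208 to 33305123 in 7D 2 mg/kg tendons. Levels are given as CPM, the counts of a gene per 1000000 counts of its tendon after TMM scaling, in the replicate order 2, 3 and 4 for control tendons and 2, 3, 4 and 5 for 7D 2 mg/kg tendons, and means carry the SD (n = 3 and n = 4). Genes were called different at a Benjamini-Hochberg adjusted p under 0.05 in edgeR's quasi-likelihood test together with a change of at least 1.5-fold, and every adjusted p below comes from this edgeR test. These p-values rest on a spread between tendons that was estimated jointly over all 7 groups of the series. All 7 tendons held counts of tendon genes. Skeletal muscle RNA was also present in the control tendons, where 31 muscle genes took 20.5, 20.3 and 28.6% of the counts, whereas they took 0.00938, 0.00977, 0.0108 and 0.0114% in the 7D 2 mg/kg tendons. The mean share was 2238-fold higher in control tendons (exact permutation test, two-sided p = 0.0286, the smallest that 3 against 4 tendons can give). Tendons were cut beside the muscle end of the tendon, and this difference in muscle RNA cannot be told apart from the repair in any gene that muscle also expresses. Control replicate 4 stood apart, with a chi-square per gene of 336 and 311 against the other control tendons, which differed from each other by 74.6.

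**Figure D1:**
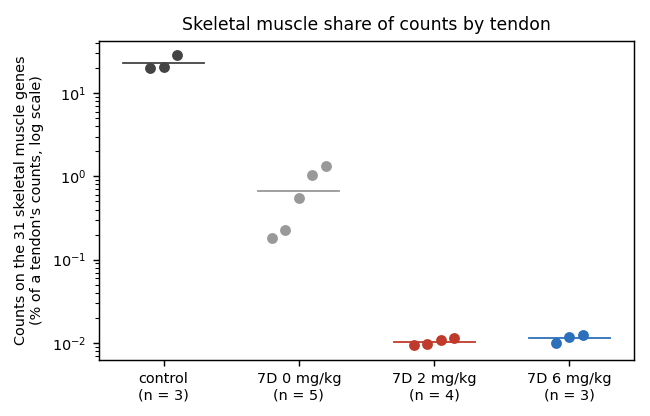
Share of each tendon's counts on 31 skeletal muscle genes (percent, log axis) in control, 7D 0 mg/kg, 7D 2 mg/kg and 7D 6 mg/kg tendons, with a point per tendon and a line at the group mean. The 4 tendons at 2 mg/kg lie between 0.00938 and 0.0114%, the control tendons between 20.3 and 28.6%, the vehicle tendons between 0.182 and 1.34%, and the 6 mg/kg tendons between 0.0101 and 0.0125%.

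Compared to control tendons, 3650 of 12558 genes tested (29.1%) were higher and 3327 (26.5%) were lower in 7D 2 mg/kg tendons, so most genes were called in one direction or the other. The groups did not overlap for 7439 of the genes tested, and for 6221 of the 6977 called. Of the genes called higher, 1640 rose by 2- to 4-fold and 120 by 16-fold or more, whereas 452 of the genes called lower fell by 16-fold or more. The median log2 fold change over all genes was 0.05 after TMM scaling, which by design keeps most genes near no change. Without control replicate 4, 3112 genes were higher and 3239 lower. In a fit of the 2 compared groups alone, 2973 were higher and 3219 lower. With the log of the muscle share as a covariate, only 562 genes were higher and 769 lower, and 494 and 591 of these were among the genes called without it. The share itself separated the groups, and 1 collagen chain, 6 scar and matricellular, 15 cell cycle, 2 cytokine and 0 phagocyte genes were then called higher. A call lost in this fit did not always come with a smaller change, since the log2 fold change of Mkx went from -3.92 to -4.21, that of Fmod from -1.77 to -1.89 and that of Igf1 from 1.804 to 1.85, whereas Cd68 and 9 other named genes turned direction. The calls of Tnn, Lum, Col3a1 and Tnmd held, with log2 fold changes of 9.01, 4.17, 2.13 and -3.15. Scaled by library size alone, which moves the median log2 fold change to 0.61, the counts were 6183 and 1932, and 76.2% of called genes were higher against 52.3% with TMM.

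**Figure D2:**
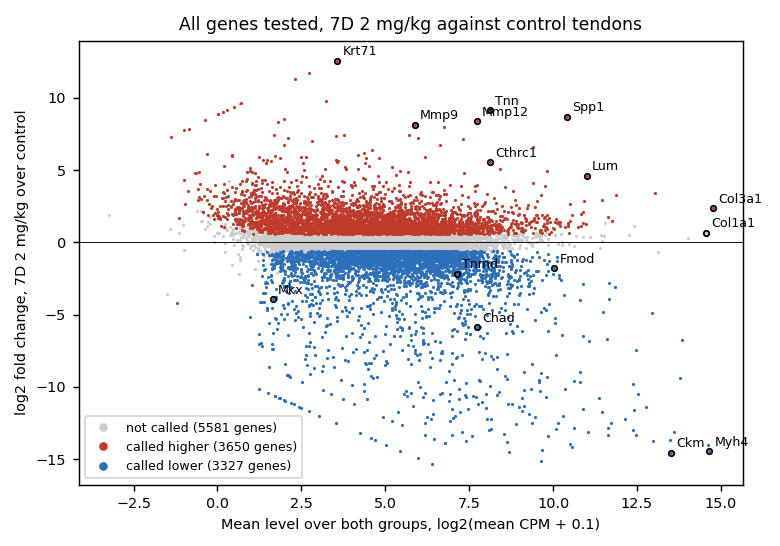
Log2 fold change of each of the 12558 genes tested (7D 2 mg/kg over control) against its mean level over both groups, log2(mean CPM + 0.1), colored by call. Most of the largest falls are muscle genes such as Myh4 and Ckm, whereas the largest rises include the matrix genes Tnn and Spp1 and the proteases Mmp12 and Mmp9.

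Among genes called without overlap between the groups and at a mean of at least 10 CPM, those with large rises included genes of matrix proteins, proteases and chemokines. Tnn (tenascin W, ENSRNOG00000002548, chromosome 13), an extracellular glycoprotein of developing bone and periosteum, was counted at 1.27, 0.601 and 1.06 CPM in control tendons and 590.1, 571, 299.7 and 742 CPM in 7D 2 mg/kg tendons (log2 fold change 9.15, standard error 0.653, adjusted p = 9.7e-11). Every repaired tendon lay far above every control tendon. Spp1 (osteopontin, ENSRNOG00000043451, chromosome 14), a secreted phosphoprotein of macrophages and bone, was at 6.74, 4.89 and 8.32 CPM in control tendons and 4487, 2860.1, 3368 and 159.7 CPM after repair (log2 fold change 8.68, adjusted p = 9.65e-05), and replicate 5 was far below the other 3 tendons. The same replicate was also the lowest for Mmp12, macrophage elastase, at 0.707, 1.64 and 1.47 CPM in control and 704, 581, 274 and 124 CPM in repaired tendons, and for Mmp9, gelatinase B, at 0.65998, 0.2804 and 0.245 CPM in control and 118, 169, 156 and 24.7 CPM in repaired tendons. The log2 fold changes of these proteases were 8.37 and 8.15 (adjusted p = 2.17e-05 and 4.28e-05). Mmp13, a collagenase, rose from 0.176 ± 0.165 to 27.1 ± 12.9 CPM (log2 fold change 7.41, adjusted p = 7.19e-06).

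Other genes among the largest rises had different patterns over the 4 repaired tendons. The chemokine Ccl9 was at 0.424, 1.12 and 1.06 CPM in control and 415, 246, 167 and 33.5 CPM in repaired tendons (log2 fold change 7.97, adjusted p = 8.03e-05). It was lowest in replicate 5. Msln, the mesothelial surface protein mesothelin, was instead highest in replicate 5, at 0.754, 0.1602 and 1.96 CPM in control and 147, 84.8, 77.9 and 191 CPM in repaired tendons (log2 fold change 7.21, adjusted p = 2.17e-09). The neutrophil chemokine gene Cxcl3 had 1 count over the 3 control tendons and was at 30.7, 16.3, 22.2 and 4.88 CPM in the repaired tendons. Krt71, a hair follicle keratin, also met the rule, with no count in control tendons and 0.478, 93.6, 0.273 and 0.0642 CPM in repaired tendons, so that replicate 3 set its mean. Its call against control tendons held with any 1 of the 7 tendons left out (log2 fold change at least 6.20). That call was lost in the fit of these 2 groups alone and with the muscle share as a covariate. The epidermal keratin Krt5 was at 0, 11.3 and 0 CPM in control tendons and 0.0368, 65.3, 0 and 0.128 CPM in repaired tendons, so that the same replicate held both keratins. Replicate 3 alone was also high for other genes of skin and hair, named after their values were seen, with 51.8 CPM of Krt25, 58.04 CPM of Krt17, 49.3 CPM of Lgals7 and 42.4 CPM of Tchh. Of these, Krt25, Lgals7 and Tchh were called higher than in control tendons.

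The list of tendon lineage and mature tendon genes went mostly down, with 14 of 26 tested genes lower and 6 higher. Of all genes, 26.5% were lower and 29.1% higher. Tnmd (tenomodulin, ENSRNOG00000060970, chromosome X) was counted at 364, 147 and 178 CPM in control tendons and 46.7, 82.9, 40.9 and 32.7 CPM in 7D 2 mg/kg tendons, with no overlap between the groups (log2 fold change -2.17, standard error 0.479, adjusted p = 0.000296). Mkx, the mohawk homeobox factor that maintains tenocyte identity, fell from 5.68 ± 3.37 to 0.363 ± 0.251 CPM (log2 fold change -3.92, adjusted p = 1.39e-05). Fmod (fibromodulin, ENSRNOG00000003183, chromosome 13) was at 3207, 868 and 771 CPM in control tendons, where replicate 2 was far above the other control tendons, and at 529.7, 506, 344 and 516 CPM after repair (log2 fold change -1.77, adjusted p = 0.00058). Larger falls were those of Chad, chondroadherin, a cell-binding leucine-rich protein, and of Angptl7, an angiopoietin-like secreted protein. Chad went from 962, 179.7 and 119 CPM to 1.29, 6.58, 5.896 and 15.3 CPM (log2 fold change -5.87, adjusted p = 1.93e-05). Angptl7 went from 2243, 452 and 123 CPM to 34.6, 61.6, 15.9 and 87.6 CPM (log2 fold change -4.23, adjusted p = 6.51e-05). Clec3a, a cartilage lectin, had a log2 fold change of -4.35 (adjusted p = 0.00334), and its call was lost without control replicate 2.

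Scx, scleraxis, did not pass the test, at 37.2, 18.99 and 25.3 CPM in control tendons and 23.4, 28.4, 14.8 and 22.2 CPM in repaired tendons (log2 fold change -0.29, adjusted p = 0.532). The groups overlapped for it, as they did for Thbs4, a thrombospondin of tendon matrix, at 1160.4, 299 and 396 CPM in control and 891, 556, 368 and 694 CPM in repaired tendons (adjusted p = 0.964). They also overlapped for Comp, cartilage oligomeric matrix protein, at 958, 171 and 133 CPM in control and 554, 628, 257 and 859 CPM in repaired tendons (adjusted p = 0.496). Decorin, the most studied fibril-binding proteoglycan of tendon, encoded by Dcn, was at 4096 ± 1967 CPM in control and 5768 ± 1104 CPM in repaired tendons and did not pass either (adjusted p = 0.0655). Comp passed without control replicate 2 (log2 fold change 1.86), and Dcn passed without control replicate 2, without 7D 2 mg/kg replicate 4 and when scaled by library size alone (0.80, 0.59 and 1.004 on the log2 scale). Its relative Lum (lumican, ENSRNOG00000004610, chromosome 7) rose in every repaired tendon, from 274, 78.6 and 135 CPM in control to 4390.1, 4717, 2585 and 4017 CPM (log2 fold change 4.596, standard error 0.38005, adjusted p = 6.1e-10). Also higher were Egr2, an early growth response factor that acts on tendon collagen genes (log2 fold change 3.397, adjusted p = 0.000507), and Prg4 (lubricin, ENSRNOG00000002385, chromosome 13), the lubricant of joint and tendon surfaces. Prg4 was at 1267, 489.5 and 214 CPM in control and 2845, 2154, 5942 and 8942 CPM in repaired tendons (log2 fold change 2.92, standard error 0.584, adjusted p = 0.000102). Htra4, a serine protease of the Htra family, was at 1.51, 2.08 and 3.26 CPM in control and 145, 88.4, 530.5 and 496 CPM in repaired tendons (log2 fold change 7.14, adjusted p = 0.00125). Lubricin and Htra4 were both higher in replicates 4 and 5 than in replicates 2 and 3.

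**Figure D3:**
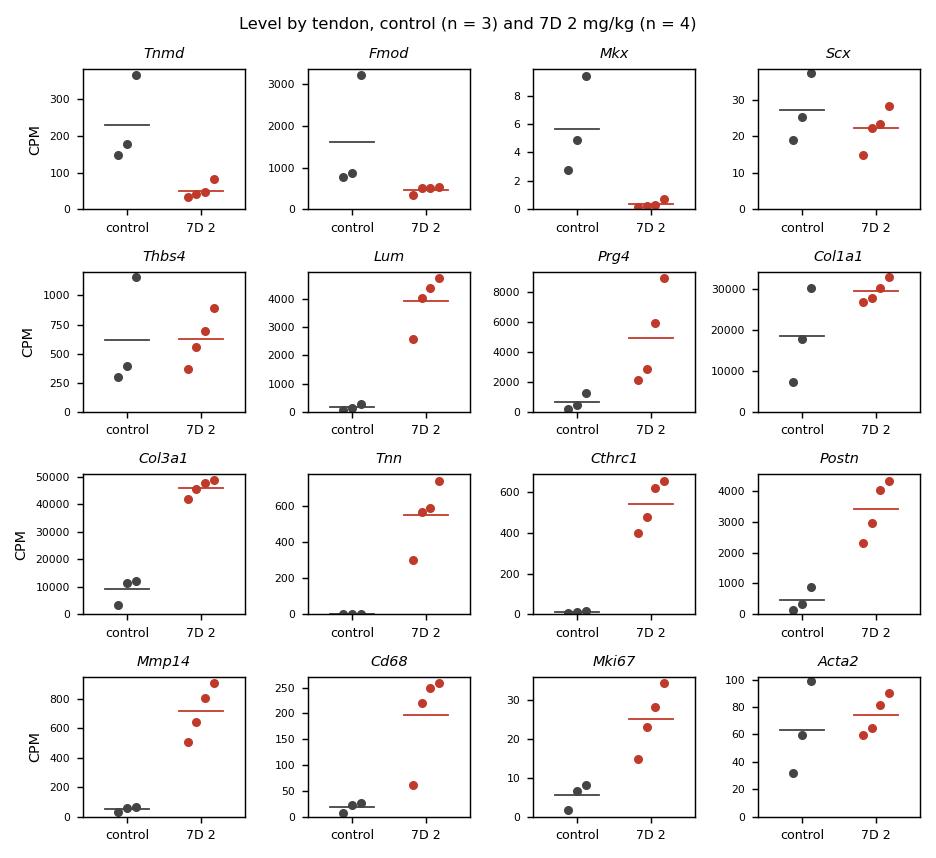
Level of 16 genes in CPM (linear axes that start at 0) in each control tendon (n = 3) and each 7D 2 mg/kg tendon (n = 4), with a line at the group mean. Tnmd, Fmod and Mkx are lower in every repaired tendon, Lum, Col3a1, Tnn, Cthrc1 and Mmp14 are higher in every repaired tendon, and the groups overlap for Scx, Thbs4, Col1a1 and Acta2.

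More collagen chains were higher than lower. Of 32 chains tested, 18 were higher and 5 lower, against 29.1% and 26.5% of all genes, with a median log2 fold change of 1.08. With the muscle share as a covariate, 1 chain was higher and 2 were lower. The summed share of all chains was 0.807 to 3.50% of counts in control tendons and 8.84 to 9.32% after repair. Col3a1 (ENSRNOG00000003357, chromosome 9), the chain of type III collagen, was counted at 11401, 12287 and 3487 CPM in control tendons and 48725, 45800.3, 41923 and 47854 CPM in 7D 2 mg/kg tendons (log2 fold change 2.35, standard error 0.301, adjusted p = 2.72e-07). Col1a1 (ENSRNOG00000003897, chromosome 10), a chain of type I collagen, the main collagen of tendon, was at 30114, 17811 and 7353 CPM in control and 27648, 30192, 32869 and 26784 CPM in repaired tendons and did not pass the test (log2 fold change 0.67, adjusted p = 0.0797), although it passed without control replicate 2 and when scaled by library size alone. The repaired tendons lay close together for both chains, whereas the control tendons were widely spread. Col5a3, Col8a1 and Col12a1, chains that regulate or decorate fibrils or form networks, rose by 3.09, 2.23 and 2.04 on the log2 scale (adjusted p = 3.9e-07, 1.24e-05 and 0.000146). Col5a3 was even over tendons, at 67.7, 68.2 and 54.2 CPM in control and 606, 505, 518 and 534 CPM in repaired tendons. The chains that fell most were Col11a2 and Col24a1. Col11a2, a cartilage fibril chain, was at 281, 49.8 and 101 CPM in control and 2.61, 6.33, 4.31 and 3.79 CPM in repaired tendons (log2 fold change -5.07, adjusted p = 1.32e-07). Col24a1, a minor fibrillar chain, was at 72.8, 90.4 and 35.8 CPM in control and 3.42, 1.57, 0.764 and 1.99 CPM in repaired tendons (log2 fold change -5.08, adjusted p = 4.6e-09).

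Enzymes that modify and crosslink collagen rose with few exceptions, with 21 of 25 tested genes higher and 0 lower, and a median log2 fold change of 1.13. P4ha3, a prolyl hydroxylase subunit, had the largest rise, from 6.47 ± 3.71 to 77.5 ± 22.02 CPM (log2 fold change 3.56, adjusted p = 4.22e-09). The lysyl oxidases Loxl1 and Lox, which start the crosslinking of collagen and elastin, rose by 2.49 and 2.47 on the log2 scale (adjusted p = 2.46e-08 and 1.65e-07). Lox was at 212, 129 and 55.5 CPM in control and 789, 735, 465 and 935 CPM in repaired tendons, so that the lowest repaired tendon was above the highest control tendon. Plod2, the lysyl hydroxylase of the collagen telopeptide, rose from 41.1 ± 18.7 to 174 ± 63.7 CPM (log2 fold change 2.08, adjusted p = 5e-06).

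Of 34 scar and matricellular genes tested, 29 were higher and 0 lower, with a median log2 fold change of 1.59. After Tnn and Spp1, the largest rises were those of Cthrc1, a secreted protein of fibroblasts in injured tissue, and of Wisp2, a CCN family protein. Cthrc1 was counted at 11.6, 14.9 and 7.75 CPM in control tendons and 655, 622, 479.9 and 401 CPM in repaired tendons (log2 fold change 5.55, standard error 0.375, adjusted p = 5.78e-11). Wisp2 was at 26.2, 45.98 and 5.22 CPM in control and 445, 390.3, 376 and 386 CPM in repaired tendons (log2 fold change 3.94, adjusted p = 8.09e-08). Postn, periostin, which binds collagen in healing tissue, was at 347, 894 and 149 CPM in control and 4326, 4012, 2305 and 2952 CPM in repaired tendons (log2 fold change 2.87, adjusted p = 4.77e-06). Tnc, tenascin C, was at 259, 98.3 and 90.1 CPM in control and 589, 452, 272 and 812 CPM in repaired tendons (log2 fold change 1.83, adjusted p = 0.00268). For Tnc the lowest repaired tendon, replicate 4, was just above the highest control tendon.

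Matrix proteases and their inhibitors were higher for 24 of 38 genes tested and lower for 3. Mmp14, a membrane-bound collagenase, was at 56.1, 63.1 and 30.1 CPM in control and 805, 906, 643 and 504 CPM in repaired tendons (log2 fold change 3.84, standard error 0.309, adjusted p = 4.23e-10). Timp1, a secreted inhibitor of many metalloproteinases, was at 55.6, 60.9 and 21.8 CPM in control and 493, 393, 292 and 728 CPM in repaired tendons (log2 fold change 3.37, adjusted p = 4.28e-09). Mmp14 was lowest and Timp1 highest in replicate 5. Mmp15, another membrane-type metalloproteinase, was lower in every repaired tendon, at 68.9, 62.4 and 91.98 CPM in control and 20.9, 17.7, 35.3 and 31.3 CPM in repaired tendons (log2 fold change -1.503, adjusted p = 2.64e-05).

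Fibroblast and myofibroblast genes were higher for 15 of 27 genes tested and lower for 2, against 29.1% and 26.5% of all genes. Lrrc15, a membrane protein of activated fibroblasts, was at 1.46, 0.521 and 0.408 CPM in control and 25.7, 35.9, 19.6 and 28.8 CPM in repaired tendons (log2 fold change 5.05, adjusted p = 2.56e-08). Cdh11, the fibroblast cadherin, rose from 12.8 ± 2.54 to 123 ± 22.9 CPM (log2 fold change 3.26, adjusted p = 3.62e-09). Acta2, the smooth muscle actin that marks myofibroblasts, did not pass the test, at 32.1, 98.7 and 59.5 CPM in control and 59.3, 65.02, 90.1 and 81.7 CPM in repaired tendons (log2 fold change 0.22, adjusted p = 0.603). Tagln, an actin-binding protein of the same cells, was at 79.1 ± 37.2 CPM in control and 119.8 ± 22.3 CPM in repaired tendons and did not pass either (adjusted p = 0.223). The genes that fell were Des, desmin, and Nes, nestin, intermediate filament proteins that skeletal muscle also expresses. Des was at 5023, 4880.0 and 8442 CPM in control and 65.6, 49.1, 59.1 and 63.9 CPM in repaired tendons (log2 fold change -6.69, adjusted p = 1.4e-07). Nes was at 13.2, 16.4 and 36.7 CPM in control and 4.12, 4.15, 5.79 and 4.3002 CPM in repaired tendons (log2 fold change -2.27, adjusted p = 6.05e-06), beside the 2238-fold difference in the muscle share.

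Of 53 growth factors and binding proteins tested, 21 were higher and 11 lower, against 29.1% and 26.5% of all genes. Among genes at 10 CPM or more, the largest rises were those of Sfrp4, a secreted WNT inhibitor, and of Igfbp4, a binding protein of insulin-like growth factors. Sfrp4 was at 119, 156 and 48.5 CPM in control and 2190.1, 1301, 1243 and 1738 CPM in repaired tendons (log2 fold change 3.91, adjusted p = 5.69e-09). Igfbp4 was at 99.4, 230.5 and 104 CPM in control and 1545, 1327, 1589 and 1276 CPM in repaired tendons (log2 fold change 3.31, adjusted p = 8.75e-09). Igf1, a growth factor that stimulates tenocyte growth, rose from 68.1, 73.8 and 26.3 to 207, 166, 205 and 206 CPM (log2 fold change 1.804, adjusted p = 9.08e-06). The TGF-beta isoforms moved in opposite directions. Tgfb1 rose from 32.3, 37.1 and 21.4 to 131, 137, 211 and 66.5 CPM (log2 fold change 2.17, adjusted p = 1.11e-06), with replicate 5 lowest, and Tgfb2 fell from 165, 176 and 112 to 56.1, 43.8, 37.6 and 47.8 CPM (log2 fold change -1.71, adjusted p = 1.06e-08). Mstn, myostatin, a growth inhibitor made mainly by muscle, fell from 62.7 ± 16.03 to 0.1999 ± 0.213 CPM (adjusted p = 4.75e-06). Igfbp5, the binding protein with the highest mean among genes not called, was at 2758 ± 1198 CPM in control and 2876 ± 556 CPM in repaired tendons (adjusted p = 0.835). Scaled by library size alone, 3 of the list were lower.

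Cell cycle and DNA replication genes rose together, with 71 of 93 tested genes higher and 1 lower, and a median log2 fold change of 1.48. Mki67, the Ki-67 protein of dividing cells, was at 8.16, 6.65 and 1.71 CPM in control and 23.2, 34.4, 14.8 and 28.3 CPM in repaired tendons (log2 fold change 2.16, standard error 0.414, adjusted p = 6.06e-05). Cdk1, the kinase that drives mitosis, was at 2.498, 1.64 and 3.84 CPM in control and 15.1, 21.5, 11.7 and 34.9 CPM in repaired tendons (log2 fold change 2.998, adjusted p = 1.29e-07). Its cyclin partner Ccnb1 was at 2.12, 1.88 and 0.898 CPM in control and 9.28, 13.8, 7.37 and 16.8 CPM in repaired tendons (log2 fold change 2.81, adjusted p = 1.67e-07). All 3 genes were higher in every repaired tendon than in any control tendon, and lowest among repaired tendons in replicate 4. Of all 12558 genes tested, 7439 had no overlap between the groups, in either direction. The spindle motor Kif11 and the phosphatase Cdkn3 rose by 2.96 and 2.91 on the log2 scale (adjusted p = 1.47e-07 and 4.78e-07).

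The promoters of the 4 cell cycle genes with the largest rises at a mean of at least 10 CPM are shown because genes of this list share known promoter elements, the CCAAT box and the cell cycle homology region (TTTGAA or TTCGAA). Each line gives the 250 bases before the annotated start from RefSeq, build GRCr8, 5′ to 3′ on the gene's strand, in lower case with matches to these elements on either strand in capitals, so that CCAAT on the other strand reads ATTGG. No match shown overlapped another. The intervals are chr20:19265043-19265292 (plus strand) for Cdk1, chr1:244536617-244536866 (plus strand) for Kif11, chr15:22502136-22502385 (plus strand) for Cdkn3 and chr2:33655226-33655475 (minus strand) for Ccnb1.
Cdk1: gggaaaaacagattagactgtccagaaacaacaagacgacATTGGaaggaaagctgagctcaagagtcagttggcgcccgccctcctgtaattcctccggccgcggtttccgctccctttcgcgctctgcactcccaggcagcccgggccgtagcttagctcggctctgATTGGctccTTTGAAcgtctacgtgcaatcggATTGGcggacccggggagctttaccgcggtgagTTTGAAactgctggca
Kif11: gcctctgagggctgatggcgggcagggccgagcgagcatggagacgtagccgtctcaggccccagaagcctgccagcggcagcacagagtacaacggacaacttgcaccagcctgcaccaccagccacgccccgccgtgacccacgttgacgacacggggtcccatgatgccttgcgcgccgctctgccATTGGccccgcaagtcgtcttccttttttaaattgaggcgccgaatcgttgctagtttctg
Cdkn3: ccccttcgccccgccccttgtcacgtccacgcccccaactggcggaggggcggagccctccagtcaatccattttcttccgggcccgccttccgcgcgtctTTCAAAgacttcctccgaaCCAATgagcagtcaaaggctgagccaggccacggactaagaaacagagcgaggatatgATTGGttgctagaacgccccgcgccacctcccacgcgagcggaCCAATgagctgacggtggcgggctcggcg
Ccnb1: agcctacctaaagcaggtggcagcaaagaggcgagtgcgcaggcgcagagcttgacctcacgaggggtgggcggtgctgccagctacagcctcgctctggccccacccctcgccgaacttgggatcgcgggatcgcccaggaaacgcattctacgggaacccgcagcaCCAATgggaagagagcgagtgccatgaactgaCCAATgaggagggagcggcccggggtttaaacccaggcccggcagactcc
In promoters of 300 bases, from 250 before to 50 after the start, 53 of the 78 cell cycle genes matched by symbol among the 98 listed (67.9%) held CCAAT on either strand, against 37.5% of all 33469 promoters in the table. TTTGAA or TTCGAA was present in 47.4% and 19.7%, both elements in 38.5% and 7.95%, and the GC box GGGCGG in 64.1% and 33.1%. Among the 58 promoters of genes called higher, CCAAT was present in 65.5% and TTTGAA or TTCGAA in 48.3%. These are descriptions of letters in a window and not of factor binding. Within the 250 bases shown, Kif11 and Ccnb1 held neither TTTGAA nor TTCGAA.

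Many leukocyte genes were higher after repair. Phagocyte and lysosome genes were higher for 34 of 36 tested genes and lower for 0, with a median log2 fold change of 2.26. Gpnmb, a glycoprotein of lipid-laden macrophages, was at 62.8, 88.4 and 21.9 CPM in control and 2701, 2045, 1654 and 601 CPM in repaired tendons (log2 fold change 4.92, adjusted p = 2.23e-05). Slc11a1, a metal transporter of the phagosome, was at 3.25, 3.65 and 3.26 CPM in control and 93.7, 80.8, 49.6 and 18.7 CPM in repaired tendons (log2 fold change 4.16, adjusted p = 0.000324). Ptprc (CD45), carried by all leukocytes, was at 46.1, 27.2 and 9.71 CPM in control and 218, 248, 139 and 80.1 CPM in repaired tendons (log2 fold change 2.62, adjusted p = 0.000744). Replicate 5 was the lowest repaired tendon for all 3 genes. In bulk tissue, more cells of a type and more RNA per cell cannot be told apart.

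Of 12 macrophage markers, 10 were higher and 0 lower, 6 were higher without control replicate 4, and 0 with the muscle share as a covariate. Cd68, a lysosomal protein of macrophages, was at 25.98, 23.6 and 7.18 CPM in control and 249, 221, 259 and 61.8 CPM in repaired tendons (log2 fold change 3.38, standard error 0.713, adjusted p = 0.000188), a change that was -0.066 on the log2 scale with that covariate. Itgax, an integrin of macrophages and dendritic cells, was at 5.28, 2.003 and 0.816 CPM in control and 144, 107, 64.9 and 19.3 CPM in repaired tendons (log2 fold change 4.91, adjusted p = 0.000421). Fcgr1a, the high-affinity receptor for immunoglobulin G, rose from 15.3 ± 8.73 to 73.7 ± 17.4 CPM (log2 fold change 2.26, adjusted p = 0.000189). The 2 macrophage markers of the list that did not pass the test were Cd163 and Lyve1. Cd163, the haptoglobin-hemoglobin receptor, was at 96.5, 80.6 and 12.98 CPM in control and 75.5, 123, 152 and 57.8 CPM in repaired tendons (adjusted p = 0.268). Lyve1, a hyaluronan receptor shared with lymphatic vessels, was at 342, 199 and 70.4 CPM in control and 173, 175, 243 and 301 CPM in repaired tendons (adjusted p = 0.785).

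Lymphocyte markers were counted at low levels. Of 12 T and NK cell markers, 11 were higher and 0 lower. Cd3e, part of the T cell receptor complex, was at 1.23, 0.3205 and 0 CPM in control and 1.58, 6.08, 7.26 and 0.834 CPM in repaired tendons (log2 fold change 2.84, adjusted p = 0.00304). The groups overlapped because replicate 5 lay below the highest control tendon, and replicate 2 was little above it. The Cd3e call was lost in the fit of these 2 groups alone and with the muscle share as a covariate. The cytotoxic T cell marker Cd8a was at 2.07, 1.36 and 0.816 CPM in control and 9.39, 14.5, 10.6 and 8.09 CPM in repaired tendons without overlap (log2 fold change 2.88, adjusted p = 5.2e-07). All 11 dendritic cell and MHC class II genes were higher, and RT1-Db1, a class II chain, was at 54.2, 110.5 and 43.5 CPM in control and 197, 227, 417 and 193 CPM in repaired tendons (log2 fold change 1.896, adjusted p = 0.000209). Of 7 neutrophil markers 4 were higher, of 8 mast cell markers 2 (29.1% of all genes were higher), and of 4 B and plasma cell markers 4. The B and plasma cell count was 2 without control replicate 4 and 1 without 7D 2 mg/kg replicate 3. The mast cell count was 7 without control replicate 3 and 1 without control replicate 2 or without 7D 2 mg/kg replicate 2 or 4.

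Cytokines and chemokines were higher for 45 of 58 tested genes and lower for 1, with a median log2 fold change of 2.10. Il1rn, the antagonist of the interleukin-1 receptor, was at 2.22, 2.28 and 0.735 CPM in control and 393, 214, 147 and 29.6 CPM in repaired tendons (log2 fold change 6.75, standard error 1.55, adjusted p = 0.000452). The macrophage chemokine Ccl3 was at 0.236, 0.881 and 0.163 CPM in control and 37.2, 29.6, 24.2 and 3.14 CPM in repaired tendons (log2 fold change 5.64, adjusted p = 0.000692). Both were lowest in replicate 5, as Ccl9 was. The cytokine that was lower was Il15, which skeletal muscle also makes, at 22.7, 23.4 and 54.7 CPM in control and 6.404, 6.47, 6.496 and 8.28 CPM in repaired tendons (log2 fold change -2.28, adjusted p = 9.1e-09).

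Complement genes were higher for 14 of 19 tested genes and interferon response genes for 24 of 31, with 0 lower in each list. C3, the central complement component, was at 2.73, 4.85 and 1.22 CPM in control and 52.6, 78.1, 77.6 and 96.8 CPM in repaired tendons (log2 fold change 4.65, adjusted p = 6.67e-08). C6, of the membrane attack complex, was at 12.5, 7.57 and 9.304 CPM in control and 49.98, 44.1, 159 and 117 CPM in repaired tendons (log2 fold change 3.24, adjusted p = 0.000906). C1s, the protease of the classical pathway, rose from 178 ± 86.5 to 1301 ± 336 CPM (adjusted p = 3.8e-09), whereas Clu, clusterin, was at 462 ± 102 CPM in control and 444 ± 201 CPM in repaired tendons and did not pass (adjusted p = 0.894). Among interferon genes, the antiviral GTPase Mx1 was at 3.87, 5.13 and 5.14 CPM in control and 8.87, 140.1, 43.9 and 18.2 CPM in repaired tendons (log2 fold change 3.49, adjusted p = 0.00273). Ifit1, another antiviral effector, was at 0.566, 0 and 0.163 CPM in control and 2.76, 0.756, 16.2 and 25.5 CPM in repaired tendons (log2 fold change 5.504, adjusted p = 0.00667). The repaired tendons differed widely in both, and in a different order, with Mx1 highest in replicate 3 and Ifit1 highest in replicate 5. Irf8, a myeloid transcription factor, rose from 9.45 ± 3.76 to 85.5 ± 28.7 CPM (adjusted p = 3.99e-07).

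**Figure D4:**
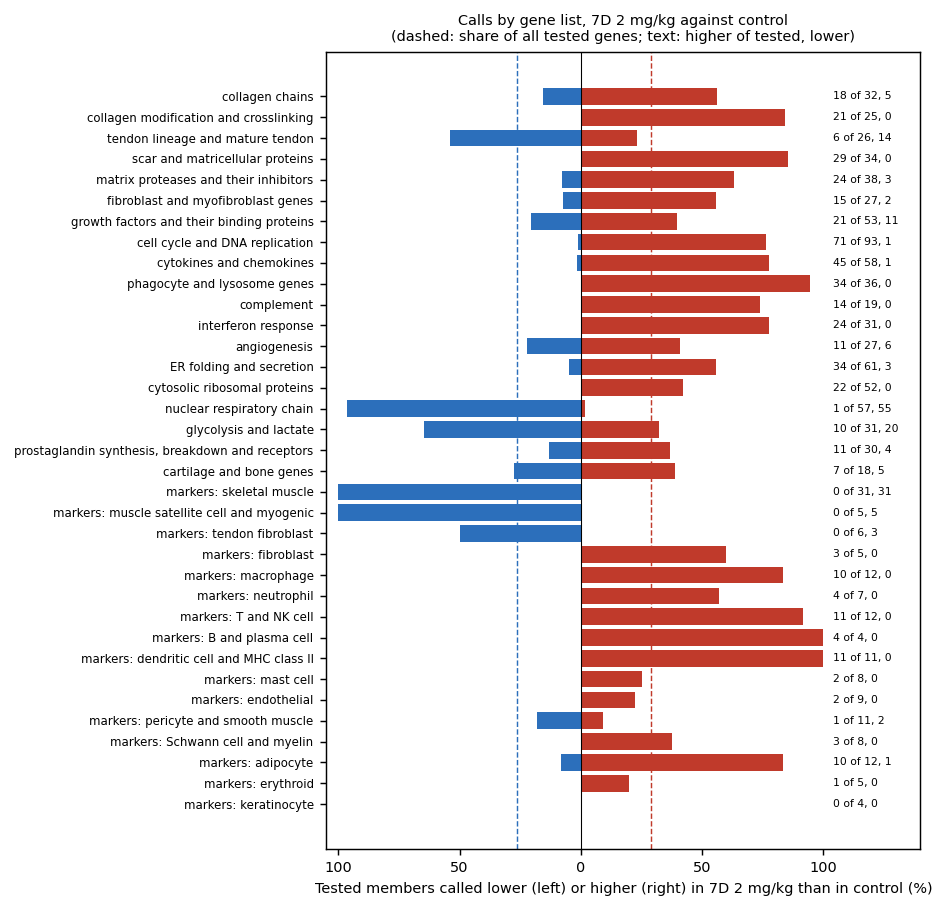
Percent of the tested members of each gene list called higher (right) or lower (left) in 7D 2 mg/kg than in control tendons, with the counts at the right edge and dashed lines at the shares of all genes tested, 29.1% and 26.5%. The phagocyte list has 34 of 36 members higher, the respiratory chain list 55 of 57 lower, and the endothelial list 2 of 9 higher.

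Few endothelial markers were called. Of 9 endothelial markers 2 were higher and 0 lower, a share near the background, and 0 were called without 7D 2 mg/kg replicate 4. Of 27 angiogenesis genes 11 were higher and 6 lower, against 29.1% and 26.5% of all genes, and 7 were higher without control replicate 2. Vegfd, a ligand of the lymphatic receptor, rose from 3.96, 3.48 and 1.71 to 45.8, 34.1, 29.8 and 34.9 CPM (log2 fold change 3.53, adjusted p = 1.29e-08). Nrp2, a co-receptor of such ligands, rose from 29.5 ± 2.81 to 131 ± 13.1 CPM (log2 fold change 2.15, adjusted p = 1.06e-07). Hif1a, the hypoxia-inducible factor, rose from 84.1 ± 14.7 to 274 ± 33.6 CPM (log2 fold change 1.702, adjusted p = 6.99e-09). Vegfa, the main angiogenic ligand, which muscle fibers also make, was lower in every repaired tendon, at 472, 391 and 753 CPM in control and 123, 139, 99.4 and 124 CPM in repaired tendons (log2 fold change -2.15, adjusted p = 9.67e-07). Also lower were Esm1, a product of endothelial tip cells (log2 fold change -5.01, adjusted p = 4.03e-07), and the vessel-stabilizing ligand Angpt1 (log2 fold change -1.83, adjusted p = 6.27e-05). Control replicate 4, which had the largest muscle share, was also the highest tendon for Vegfa and, at the top of the range 28.2 to 130.1 CPM, for Esm1.

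Of 61 ER folding and secretion genes 34 were higher and 3 lower (5 lower without control replicate 2), with a median log2 fold change of 0.62. The ER chaperone partner Sdf2l1 was at 14.6, 12.9 and 11.9 CPM in control and 46.9, 63.7, 51.1 and 37.6 CPM in repaired tendons (log2 fold change 1.92, adjusted p = 1.67e-07). The translocon subunits Sec61a1 and Sec61b rose by 1.59 and 1.54 on the log2 scale (adjusted p = 2.1e-08 and 3.62e-08). Hspa5, the ER chaperone BiP, was at 382, 412 and 396 CPM in control and 538, 521, 469.6 and 710.1 CPM in repaired tendons, with an adjusted p of 0.0038 but a log2 fold change of 0.496, below the fold asked for. Sar1b, a GTPase of transport vesicles, was the largest fall of the list, at 669.7, 645 and 1504 CPM in control and 77.8, 70.6, 69.98 and 82.8 CPM in repaired tendons (log2 fold change -3.64, adjusted p = 5.44e-10), and control replicate 4 was again the highest tendon. Of 52 cytosolic ribosomal protein genes 22 were higher and 0 lower, against 29.1% and 26.5% of all genes. Their median log2 fold change was 0.57. Rpl3 rose from 674, 901 and 471 to 1723, 1344, 1566 and 1877 CPM (log2 fold change 1.25, adjusted p = 1.35e-06) and Rps16 from 678, 888 and 1051 to 1961, 1764, 1823 and 2046 CPM (log2 fold change 1.12, adjusted p = 1.16e-05). Rplp0, often used as a reference gene, was at 2299 ± 447 CPM in control and 3237 ± 289 CPM in repaired tendons (log2 fold change 0.49, adjusted p = 0.00425). The ribosomal count depended on the tendons used, with 34 genes higher without control replicate 4, 14 without control replicate 2, and 48 higher when scaled by library size alone.

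Genes of oxidative and glycolytic metabolism were mostly lower, beside the fall in muscle RNA. All 31 muscle genes were lower, with a median fitted log2 fold change of -12.49. Myh4, the fast myosin heavy chain (ENSRNOG00000049695, chromosome 10), was counted at 54419, 49861 and 50318 CPM in control tendons and at 2.06, 1.88, 3.88 and 1.48 CPM in 7D 2 mg/kg tendons (log2 fold change -14.44, standard error 1.59, adjusted p = 2.89e-08). Acta1, skeletal muscle actin, was at 41588, 35647 and 72757 CPM in control and 2.43, 2.49, 5.73 and 1.605 CPM in repaired tendons. Ckm, muscle creatine kinase, was at 19035, 16833 and 33642 CPM in control and 0.994, 0.7003, 1.801 and 0.385 CPM in repaired tendons. Trdn, triadin of the calcium release unit, was at 2484, 2603 and 3683 CPM in control and 0.147, 0.1401, 0.164 and 0.321 CPM in repaired tendons. Myod1, the myogenic regulator, was at 28.002, 29.96 and 55.1 CPM in control tendons and had no count in any 7D 2 mg/kg tendon, so that it was at least 196-fold lower against a floor of 3 counts per library.

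Of 57 nuclear respiratory chain genes 55 were lower and 1 higher, with a median log2 fold change of -2.27. The muscle isoforms fell most, with Cox6a2 at 1049.7, 992 and 3453 CPM in control and 0, 0.2801, 0.218 and 0.128 CPM in repaired tendons and Cox8b at 387, 335 and 1636 CPM in control and 0.0368, 0.112, 0 and 0 CPM in repaired tendons. The gene that was higher was Cox6a1, the isoform of most other tissues, at 129, 123 and 143 CPM in control and 224, 230.0, 234 and 210.3 CPM in repaired tendons (log2 fold change 0.77, standard error 0.0881, adjusted p = 5.27e-08). Ndufs1, a complex I subunit, was at 608, 526 and 1085 CPM in control and 52.2, 56.7, 56.1 and 65.5 CPM in repaired tendons (log2 fold change -3.68, adjusted p = 6.24e-08). Control replicate 4 was the highest tendon for Cox6a2, Cox8b and Ndufs1. With the muscle share as a covariate, 1 of the list was lower.

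Glycolysis genes were higher for 10 and lower for 20 of 31 tested genes, against 29.1% and 26.5% of all genes. Hk3, a hexokinase of leukocytes, rose from 1.697, 0.561 and 0.4897 to 83.4, 56.98, 55.4 and 22.5 CPM (log2 fold change 5.85, adjusted p = 4.13e-05). Slc2a1, the GLUT1 glucose transporter, rose from 11.6, 7.49 and 6.37 to 105, 90.9, 57.7 and 29.5 CPM (log2 fold change 3.05, adjusted p = 0.0028). Both were lowest in replicate 5 among repaired tendons. The muscle isoforms Pgam2 and Pygm, a phosphoglycerate mutase and the muscle glycogen phosphorylase, fell from 5318 ± 3339 and 10900.4 ± 2076 CPM to 3.11 ± 0.518 and 3.46 ± 0.876 CPM (adjusted p = 7.91e-07 and 4.4e-07).

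Genes of other cells in the sample were also counted. Adipocyte markers were higher for 10 of 12 tested genes and lower for 1, and their summed share was 0.0353 to 0.0799% in control tendons and 0.0899 to 0.443% after repair. Adipoq, adiponectin, was at 38.2, 105 and 47.3 CPM in control and 79.2, 215, 757 and 680.3 CPM in repaired tendons, with overlap between the groups (log2 fold change 2.77, adjusted p = 0.00125). Lep, leptin, was at 4.81, 8.09 and 4.33 CPM in control and 4.42, 35.3, 109.9 and 119.7 CPM in repaired tendons (log2 fold change 3.53, adjusted p = 0.00383). Both were high in replicates 4 and 5 and near control levels in replicate 2. Of 8 Schwann cell and myelin markers 3 were higher (29.1% of all genes were), among them S100b, which adipocytes and cartilage also express, at 109, 108 and 63.5 CPM in control and 109, 137, 308 and 347 CPM in repaired tendons (adjusted p = 0.00441). Of 5 erythroid markers 1 was higher (29.1% of all genes were), and Hbb, a hemoglobin chain, was at 7111, 2215 and 815 CPM in control and 3132, 9852, 10851 and 6280.3 CPM in repaired tendons (adjusted p = 0.221). Cartilage and bone genes were higher for 7 and lower for 5 of 18 tested genes, beside 29.1% and 26.5% of all genes, and pericyte and smooth muscle markers for 1 and 2 of 11. Of 5 general fibroblast markers 3 were higher (5 without control replicate 2), of 6 tendon fibroblast markers 3 were lower, and all 5 markers of myogenic cells were lower. The 4 keratinocyte markers had no call, although Krt5 was high in replicate 3. The part of these cells in the results above was not tested.

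Genes of prostaglandin synthesis, breakdown and response were higher for 11 and lower for 4 of 30 tested genes, against 29.1% and 26.5% of all genes. Hpgds, the target of the compound, was counted at low levels, 7.07, 4.37 and 0.653 CPM in control and 1.84, 2.66, 4.86 and 1.48 CPM in repaired tendons, and did not pass the test (log2 fold change -0.59, standard error 0.533, adjusted p = 0.327). This result turned on the control tendons, since its log2 fold change was -1.13 without control replicate 4 (adjusted p = 0.047) and 0.0094 without control replicate 2 (adjusted p = 0.989). Ptgs2, the inducible cyclooxygenase, was at 1.65, 5.77 and 2.94 CPM in control and 8.65, 15.8, 9.17 and 8.66 CPM in repaired tendons (log2 fold change 1.604, adjusted p = 0.0029). Among the terminal enzymes, Ptges, the inducible prostaglandin E synthase, was at 7.83, 9.41 and 3.75 CPM in control and 35.96, 22.5, 37.2 and 18.1 CPM in repaired tendons (log2 fold change 2.01, adjusted p = 8.88e-07). Tbxas1, thromboxane synthase, rose from 9.59 ± 6.65 to 47.4 ± 13.5 CPM (adjusted p = 0.00106). Ptges2, another synthase of prostaglandin E, fell from 76.8 ± 37.1 to 17.2 ± 1.32 CPM (adjusted p = 9.88e-08). Hpgd, the dehydrogenase that inactivates prostaglandins, was at 13.5, 5.57 and 1.96 CPM in control and 89.4, 58.7, 19.9 and 39.4 CPM in repaired tendons (log2 fold change 2.86, adjusted p = 2.87e-05). Ptgr2, a reductase of the following step, fell from 113 ± 29.9 to 34.7 ± 5.104 CPM (adjusted p = 2.31e-08). Ptger2, a prostaglandin E receptor, was at 0.424, 1.04 and 0.0816 CPM in control and 15.6, 9.47, 7.697 and 8.92 CPM in repaired tendons (log2 fold change 4.195, adjusted p = 9.09e-05). The secreted phospholipase Pla2g2a was at 611 ± 477 CPM in control and 612 ± 91.5 CPM in repaired tendons (adjusted p = 0.998). Scaled by library size alone, 20 genes of the list were higher.

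To see where the 2 mg/kg group differed from the same repair under vehicle, the 7-day groups were compared within the same model. Against 7D 0 mg/kg tendons 85 genes (0.677% of those tested) were higher and 166 (1.32%) lower at 2 mg/kg. Of the 31 muscle genes 24 were among the lower genes, and the muscle share was 0.182 to 1.34% in vehicle tendons (exact permutation test, two-sided p = 0.0238) and 0.0101 to 0.0125% at 6 mg/kg (p = 0.2 against 2 mg/kg by the same exact test). Myh4 was at 948 ± 689 CPM (n = 5) under vehicle and 2.32 ± 1.06 CPM at 2 mg/kg (log2 difference -8.68, adjusted p = 0.00117). Outside the muscle list, Acta2 was lower, at 179.8 ± 69.7 CPM under vehicle and 74.03 ± 14.3 CPM at 2 mg/kg (log2 difference -1.28, adjusted p = 0.0359), a call that 6 of the 9 fits with a tendon left out lost. Lyve1 was higher, at 90.7 ± 43.6 CPM under vehicle and 223 ± 61.2 CPM at 2 mg/kg (log2 difference 1.296, adjusted p = 0.044), a call that 7 of the 9 fits lost. With the muscle share as a covariate the calls of Acta2 and Lyve1 were lost (adjusted p = 0.133 and 0.411). The Lyve1 call was also lost with library size alone, in the fit of these 2 groups and with a replicate block.

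The genes higher at 2 mg/kg than under vehicle with the smallest p-values included secreted, membrane and channel proteins. Prg4 was at 664 ± 219.9 CPM under vehicle and 4971 ± 3118 CPM at 2 mg/kg, and the ranges 374 to 900.2 and 2154 to 8942 CPM did not overlap (log2 difference 2.903, standard error 0.478, adjusted p = 0.0013). Clic5 (ENSRNOG00000047218, chromosome 9), an intracellular chloride channel protein bound to the actin cortex, was at 464, 474 and 418 CPM in control tendons, 32.4 ± 15.1 CPM under vehicle and 364, 153, 749 and 774 CPM at 2 mg/kg (log2 difference 3.97 from vehicle, adjusted p = 0.00143). Its log2 difference from control tendons was 0.17 (standard error 0.7004, adjusted p = 0.836), and the tendons of the 2 groups overlapped. Sema5a, a semaphorin guidance protein, was at 22.1 ± 2.61 CPM under vehicle and 126 ± 58.8 CPM at 2 mg/kg (log2 difference 2.51, adjusted p = 0.00117). Enpp2, autotaxin, which makes lysophosphatidic acid, was at 36.7 ± 5.598 CPM under vehicle and 116 ± 48.7 CPM at 2 mg/kg (log2 difference 1.66, adjusted p = 0.00117). The Enpp2 call was lost with the muscle share as a covariate (log2 difference 0.94, adjusted p = 0.0792). Aqp3, a water and glycerol channel, Gpr37, an orphan receptor, Krt79, an epithelial keratin, and Wif1, a WNT inhibitor, had log2 differences of 3.66, 2.73, 2.52 and 1.58 (adjusted p = 0.00117, 0.0014, 0.00117 and 0.00218), all at low levels, with 3.64 ± 1.66, 5.103 ± 2.84, 13.5 ± 5.45 and 8.07 ± 3.52 CPM at 2 mg/kg.

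Htra4, named above for its rise against control tendons, was at 7.14 ± 5.99 CPM under vehicle (log2 difference 5.46, adjusted p = 0.022). That call was lost in 3 of 9 fits with a tendon left out and with the muscle share as a covariate (adjusted p = 0.288). Dlx3, a homeobox factor of skin appendages and bone with 0.283, 0.0401 and 0.0816 CPM in control and 16.6, 19.3, 29.4 and 25.4 CPM at 2 mg/kg, was at 1.38 ± 1.46 CPM under vehicle (log2 difference 4.03, adjusted p = 0.0114). The Dlx3 call was lost with the muscle share as a covariate (adjusted p = 0.146). Col22a1, a collagen of tissue junctions, was at 292, 411 and 152 CPM in control, 9.405 ± 13.4 CPM under vehicle and 98.5, 53.8, 71.8 and 155 CPM at 2 mg/kg (log2 difference 3.33 from vehicle, adjusted p = 0.0364), a call lost in 7 of 9 such fits, with adjusted p up to 0.123, and in the fit of these 2 groups alone. Krt71 was also called (log2 difference 6.26, adjusted p = 0.00717), on replicate 3 alone. Krt25, Krt17 and Lgals7, high in the same replicate, were called against vehicle too (adjusted p = 0.0438, 0.0325 and 0.0445). Without 7D 2 mg/kg replicate 5, 30 genes were higher than under vehicle and 79 lower. No gene passed against 7D 6 mg/kg tendons in edgeR (0% higher and 0% lower), where 997 had an unadjusted p under 0.05 and DESeq2 called 49 higher and 9 lower. Against 6 mg/kg the log2 differences of Prg4, Clic5 and Sema5a were 2.46, 3.62 and 2.16 (standard error 0.571, 0.809 and 0.461, adjusted p = 0.158 for each), from means of 906 ± 634, 41.4 ± 33.9 and 27.97 ± 19.6 CPM (n = 3) at 6 mg/kg. Both comparisons share the 4 tendons at 2 mg/kg.

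**Figure D5:**
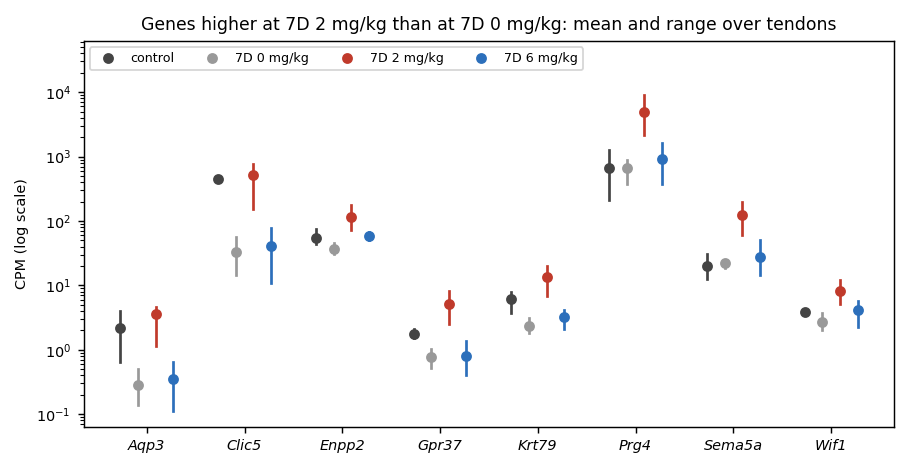
Level in CPM (log axis) of the 8 genes with the smallest p-values among those higher at 7D 2 mg/kg than at 7D 0 mg/kg, with the mean as a point and the range over tendons as a bar, for control (n = 3), 7D 0 mg/kg (n = 5), 7D 2 mg/kg (n = 4) and 7D 6 mg/kg (n = 3) tendons. Clic5 at 2 mg/kg overlaps the control tendons, and Prg4 at 2 mg/kg lies above all other groups.

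The spread over all genes was smaller among the 4 repaired tendons than among the 3 control tendons. The median SD of log2 CPM was 0.226 in 7D 2 mg/kg and 0.368 in control tendons, and 480 genes (3.82%) and 1219 genes (9.71%) had an SD above 1. Control replicates 2 and 3 correlated at 0.967 over genes, within the range of 0.952 to 0.970 for pairs of repaired tendons, and control replicate 4 correlated with them at 0.920 and 0.926. Replicates 2 to 5 nevertheless differed in the order of macrophage, fat and surface genes, as described for Spp1, Adipoq and Prg4.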

How the data were processed

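RNA of the right plantaris tendon was sequenced by the authors as 50-bp single reads, trimmed, freed of libraries that failed their read quality review, aligned with STAR to rn6 and counted per Ensembl gene. The tools named in the submitters' processing notes are FastQC, STAR and edgeR. The deposited count table holds whole-number counts of 13124 genes in 30 tendons, not normalized. Genes left out of that table, such as Col1a2, were not analysed here. A second deposited table gave gene identifiers, chromosomes and the width of each gene in bases. Its other columns are the fold changes and p-values of the authors' own comparisons and were not used.

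Genes whose group mean reached 3 CPM in any of the 7 groups were tested (12558, with 566 removed). The quasi-likelihood fit used edgeR 4.0.16 under R 4.3.3, all 30 tendons and 1 coefficient per group, with TMM factors of 0.599 to 0.789 in control and 0.950 to 1.10 in repaired tendons. The standard error is the log2 fold change over the square root of F. Log2 CPM for the SD used a prior count of 2. The model was tested on simulated data before use, with 200 of 12558 genes changed. There edgeR called 28.4% of the genes changed by 1.5-fold, 71.6% of those changed by 2-fold and 86.4% of those changed by 4-fold. Unchanged genes made up 6.1% of the edgeR calls and 15.1% of the DESeq2 calls. Data with as many changed genes as were called against control were not tested. Alternatives were size factors of another kind, library size alone, other filters, DESeq2 1.42.0, the compared groups alone, a replicate block, the muscle genes left out or their share as a covariate, and each tendon left out in turn. The sample groups came from the labels.

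The compared groups and the gene lists were chosen with earlier results of these data known. Genes were named as core genes of repair, as the largest rises or falls without overlap at a mean of 10 CPM or more, over all genes and in each list, as the members not called with the highest means, and as the smallest p-values against 7D 0 mg/kg. Not every gene that met the rule is described, and some are not reported here. Promoters came from RefSeq (GRCr8) and were matched by symbol. Total counts were 14958208 to 33305123 in the 7D 2 mg/kg tendons, and counting error is largest for genes near 1 CPM.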

Additional observations from a re-analysis of the deposited data

Results flagged for a closer look

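Some values of a single 7D 2 mg/kg tendon lay apart from the other 3 by Dixon's test, which happens by chance in about 1 in 20 groups of 4. With 130 named genes carried through the alternative fits, several such values are expected at this rate. Replicate 3 was high for Krt5 (65.3 CPM), Krt71 (93.6 CPM) and Ptgs2 (15.8 CPM) and low for Igf1 (166 CPM). Replicate 4 was high for RT1-Db1 (417 CPM) and Nes (5.79 CPM) and low for Fmod (344 CPM). Replicate 5 was high for Trdn (0.321 CPM) and Il15 (8.28 CPM) and low for Aqp3 (1.16 CPM), and replicate 2 was high for Mkx (0.736 CPM).

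At 7 days the change from control tendons differed between 2 mg/kg and vehicle for genes called in the direct edgeR comparison of these groups, which share the same controls. The log2 difference was negative for the muscle genes Ckm (-8.72), Myh4 (-8.68), Trdn (-8.55), Acta1 (-8.35) and Des (-2.61), for the muscle isoforms Cox8b (-7.88), Cox6a2 (-7.82), Pygm (-5.81) and Pgam2 (-4.45), and for Acta2 (-1.28). For Myod1, which had no count at 2 mg/kg, the fitted difference was -9.39 and is not a bound. The log2 difference was positive for Krt71 (6.26), Htra4 (5.46), Dlx3 (4.03), Clic5 (3.97), Aqp3 (3.66), Col22a1 (3.33), Prg4 (2.90), Gpr37 (2.73), Krt79 (2.52), Sema5a (2.51), Enpp2 (1.66), Wif1 (1.58) and Lyve1 (1.30). With 1 of the 9 tendons left out in turn, the call was lost in 7 fits for Col22a1 and Lyve1, in 6 for Pgam2 and Acta2, in 5 for Des, in 3 for Htra4 and in 1 for Krt71. The muscle share of counts was 64.7-fold lower at 2 mg/kg than under vehicle, with shares of 0.0101 to 0.0125% at 6 mg/kg, and its part in these differences was not tested beyond the fit with that share as a covariate. In that fit the calls of Acta2, Lyve1, Enpp2, Dlx3, Htra4, Myod1 and Cox8b were lost. Those of Prg4, Clic5, Sema5a, Aqp3, Gpr37, Krt79, Wif1, Col22a1 and Krt71 held.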

How the results depend on the processing

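Against control, leaving out 1 tendon gave 3112 to 3760 genes higher and 3239 to 3599 lower. Library size alone gave 6183 and 1932, and the muscle share as a covariate gave 562 and 769. Against 7D 0 mg/kg, where 85 genes were higher and 166 lower, DESeq2 gave 161 and 349 and the covariate 728 and 392. Only 34 of the 85 and 51 of the 166 were still called with the covariate. Leaving out 1 tendon there gave 30 to 109 higher and 79 to 228 lower. Both lowest counts came without 7D 2 mg/kg replicate 5, and 89 were lower without its replicate 2. Without vehicle replicates 2, 3 and 4 the higher counts were 51, 44 and 47. Against 7D 6 mg/kg, DESeq2 gave 49 higher and 9 lower, the covariate 2 and 1, and leaving out 1 tendon 0 to 3 higher. The cause of these shifts was not tested.

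With the covariate the log2 fold change against control turned for Mstn (1.61), Pgam2 (1.03), Pygm (0.59), Mmp15 (0.30), Cd68 (-0.066), Fcgr1a (-0.22), Tbxas1 (-0.35), Enpp2 (-0.36), Ptprc (-0.48) and Slc2a1 (-1.03), and against 7D 0 mg/kg for Pgam2 (2.10), Pygm (0.86) and Des (0.71). In that fit the calls of those 10 genes and of 63 other named genes against control ended. For Krt71 the log2 difference from 7D 0 mg/kg was -0.079 without replicate 3 and up to 6.67 without another tendon.

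The labels do not say that tendons with the same replicate number share a rat or batch. Correlations of same-numbered control and 7D 2 mg/kg tendons, not comparable with those of levels between replicates above, were 0.113, 0.195 and -0.05. Those of tendons with different numbers ran from -0.222 to 0.259. So few values cannot decide whether the numbers mark a pairing. With a replicate block 3652 genes were higher and 3297 lower than in control, 70 and 164 than in 7D 0 mg/kg, and 1 was higher than in 7D 6 mg/kg. Sampling noise limits genes under 1 CPM.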
